A study of Ambystoma mexicanum with 7 samples.

Results

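The regions described here were accessible sites of axolotl limb that had a peak in intact limb and in regenerating blastema, and no peak in the systemically activated limb. Members were chosen from the measured peak lists themselves. A peak of the intact list on a named chromosome arm was taken when a blastema peak shared at least 1 base with it and no systemically activated peak did. This held for 10093 of the 25110 intact peaks on named arms, or 40.2% (exact 95% interval 39.6 to 40.8). Taken singly, a blastema overlap was present in 89.9% of these 25110 peaks, and an activated overlap was lacking in 49.8%. The other intact peaks on these arms were 12493 found in all 3 group lists, 2405 found in the intact list alone, and 119 shared with systemically activated limb but not blastema.

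The study used wild type axolotls (Ambystoma mexicanum), salamanders that regrow amputated limbs, and profiled 7 samples by ATAC-seq. In each sample 10000 live cells with a 4C DNA content, that of cells with a copied genome, were sorted and exposed to the Tn5 transposase, which inserts into open DNA. Homeostatic (intact) limb had 3 samples. Systemically activated limb, meaning limb of an animal amputated elsewhere, had 2, and blastema with wound epidermis had 2. The series design gives 14 days post-amputation for both kinds of limb, while the blastema stage and the age of the animals are not stated in the sources used here. All tissues were mixtures of cell types, and the blastema samples also held wound epidermis, so a peak in one list may come from a different cell type than the overlapping peak in another. Fewer cells of a type with a site open and less opening per cell cannot be told apart in such samples.

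Accessible sites outside genes are commonly enhancers, short stretches where transcription factors bind and raise the activity of a gene at a distance, and sites at gene starts are promoters. A blastema forms at the stump from cells that re-enter the cell cycle, and limbs far from the wound also show re-entry, which is called systemic activation. Sites of this kind therefore bear on which open chromatin of the sorted 4C cells was detected in intact limb and at the stump. The same sites escaped detection in the responding distant limb. No genome or annotation known to match the files was used here, so neighbouring genes and motifs of the sites were not analysed here and the sites are given by position. Positions are counted within the segments into which the files cut long arms, numbered from 0.

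Each group had 1 list made from its samples together, which left single samples without values, and replicate spread is unknown. No test between conditions was possible. Intervals are 95% exact binomial ones taken over peaks and hold counting error alone. Depth differed between the lists. The lowest background at a summit, a measure of reads behind a list, was 2.49 fragments in blastema, 0.529 in intact limb and 0.375 in the activated list, so the activated list had 0.710 times the intact depth by this measure. Fragments here means the units that the peak caller stacked, which may be read pairs or extended single reads. The lack of a peak in the shallowest list is a missing call and does not show closed chromatin.

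The sites were mostly of low or middle strength within intact limb, between the peaks found everywhere and those found in intact limb alone. Their median pileup at the summit, the number of fragments stacked there, was 13 (5th to 95th percentile 7 to 23). It was 21 for intact peaks in all 3 lists and 9 for those in the intact list alone. The median fold over local background was 5.05 and the median −log10 q was 4.28, against 5.71 and 7.54 for peaks in all 3 lists and 5.00 and 3.23 for peaks in intact limb alone. Widths followed the same order, with medians of 278, 490 and 208 bases. Of the sites 1614, or 16.0%, had the shortest width in the list, 200 bases, and 789, or 7.82%, were wider than 500 bases. Of the peaks in all 3 lists, 6005, or 48.1%, passed 500 bases. A fold of at least 5 was reached by 5304 sites (52.6%), where 62.3% of all intact peaks on named arms reached it. These values come from a list that chose the members and are a description, with no test.

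The share of intact peaks that fell into the set was flat over the weaker part of the list and dropped toward the strong end. By deciles of −log10 q it was 56.9% (54.99 to 58.9) in the weakest, 58.2% in decile 3, 45.3% in decile 6 and 4.06% (3.32 to 4.91) in the strongest. In the weakest decile the remainder was led by peaks of the intact list alone (30.2%), and in the strongest by peaks of all 3 lists (95.9%). The set and the peaks of all 3 lists traded places in the middle of the list, with 49.6% in all 3 lists in decile 6. None of the 100 intact peaks of highest fold was a member, and 22 of the highest 500 were.

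**Figure D1:**
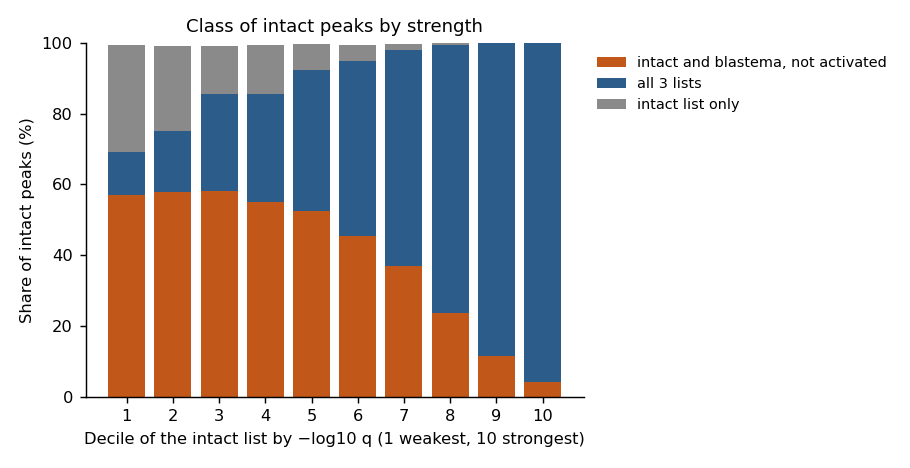
Class of the intact peaks on named arms (vertical axis, share in percent) in each decile of the list by −log10 q (horizontal axis, weakest to strongest). Sites of intact limb and blastema made up 56.9% of the weakest and 4.06% of the strongest decile, while peaks of all 3 lists rose to 95.9%; peaks shared with activated limb alone are left out and account for the small gaps at the top.

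**Figure D2:**
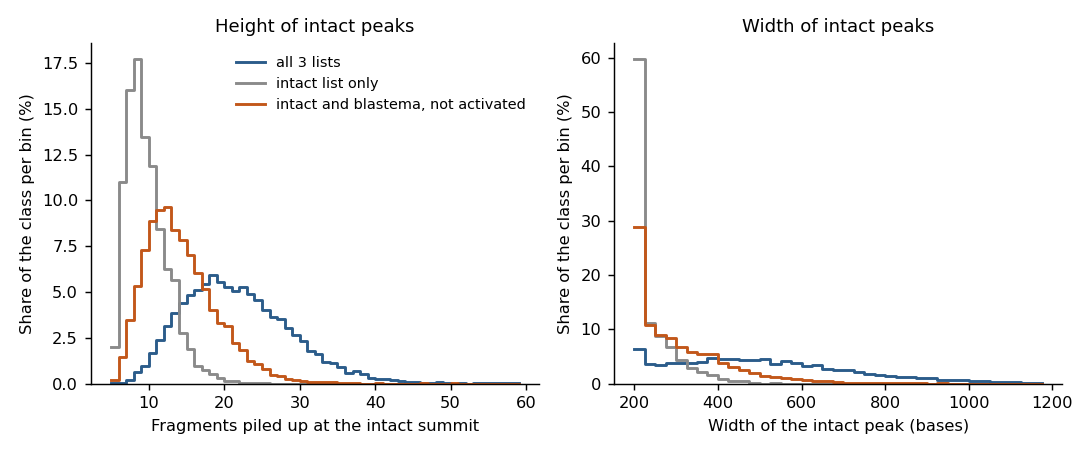
Distribution of summit pileup in fragments (left) and of width in bases (right) for intact peaks of 3 classes, as the share of the class in each bin (bins of 1 fragment and of 25 bases). The sites, with medians of 13 fragments and 278 bases, lie between peaks of the intact list alone and peaks of all 3 lists; values beyond the last bin are not drawn.

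The 10 sites of highest fold were between 222 and 413 bases wide, and their summits in both lists lay between 5 and 88 bases apart. The site of highest fold was on arm 10p segment 0 from 26586865 to 26587202. Its fold was 11.8, from 17 fragments over the genome-wide background of 0.529. Its blastema peak, from 26586937 to 26587656, had a fold of 15.2 and 52 fragments, and the summits were 88 bases apart. The nearest systemically activated peak was 12616 bases away, so no activated peak adjoined it.

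The second site, on 13q from 478338969 to 478339361, had a fold of 11.7, 18 fragments in intact limb and 52 in blastema, with summits 37 bases apart. A further site of the highest 10 lay on the same arm, from 479632372 to 479632648, with a fold of 9.81, 14 fragments in intact limb and 46 in blastema. It lay 5816 bases from an activated peak, the closest of the 10.

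The next 3 sites by fold all had 16 fragments over the genome-wide background and hence one fold, 11.1. On 12p, from 260209001 to 260209232, the blastema peak held 49 fragments, and the nearest activated peak was 2761534 bases away. On 2q segment 0, from 59058788 to 59059009, it held 48 fragments with an activated peak 2080819 bases away. On 9q segment 0, from 143789340 to 143789586, it held 31 fragments. These 3 sites shared a height in intact limb and differed in blastema, where the last was the lowest.

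Arm 2p segment 2 carried the sixth, from 434343733 to 434344145, with 22 fragments and a fold of 10.8 in intact limb and 58 fragments in blastema. The seventh, on 4q segment 2 from 390529923 to 390530307, had 21 and 49 fragments. The eighth, on 6p segment 0 from 305096396 to 305096618, had 16 fragments in intact limb but only 21 in blastema, the lowest blastema pileup of the 10. The ninth, on 2q segment 2 from 385369218 to 385369554, had 17 fragments and the highest blastema pileup of the 10, 73.

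Ranking by −log10 q mostly picked sites with more fragments over a higher local background. The exception was the 2p segment 2 site, with 22 fragments over a background of 1.12. Leading this order, a site on 2q segment 2 from 360738345 to 360738637 had a −log10 q of 26.5, 69 fragments and a local background of 10.8, which brought its fold to 5.91. Its blastema peak held 143 fragments, and an activated peak ended or began 436 bases away. The second, on 5p segment 1 from 424134606 to 424134929, had a −log10 q of 25.2 with 45 fragments in intact limb and only 48 in the deeper blastema list. These were the only members with a −log10 q of at least 20, a level that 400 of the peaks in all 3 lists reached.

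The next sites by −log10 q were on 5q segment 2 from 270774287 to 270774724 (−log10 q of 16.5, 34 fragments), the 2p site named above (16.3), and 2p segment 1 from 192481733 to 192482013 (16.3, 40 fragments). The last of these lay 943 bases from an activated peak. Of the 5 sites strongest by −log10 q, 3 thus had an activated peak within 10 kb, against 1 of the 10 strongest by fold.

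Ranked by the fold of the blastema peak, the 10p and 13q sites led again, and 2 sites entered that were weaker in intact limb. One was on 5q segment 0 from 58612608 to 58612883, with 13 fragments in intact limb, 51 in blastema and a blastema fold of 14.9. The other was on 2p segment 2 from 438760185 to 438760404, with 12 fragments in intact limb, 54 in blastema and a blastema fold of 14.1. Its intact fold, 7.07, ranked 458 among the sites.

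The 3 widest members had folds of 4.95, 3.38 and 4.43 in intact limb, below the median of the sites. The widest spanned 1351 bases on 3q segment 0 from 30562242 to 30563592 and lay wholly inside a blastema peak of 1852 bases, with 27 and 64 fragments at the summits. Its intact pileup was above the 95th percentile of the sites, 23. The next, 1154 bases on 3q segment 1 from 250277194 to 250278347, covered a blastema peak of only 443 bases. The third, 1127 bases on 4q segment 2 from 352873729 to 352874855, covered one of 517 bases. In the last 2 the intact interval was thus the longer, which is rare among the sites.

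In blastema the sites usually fell inside a longer peak, as did the intact peaks of all 3 lists and the activated peaks that blastema shared and intact limb lacked. The blastema peak was wider than the intact peak at 9502 sites (94.1%, 93.7 to 94.6). Its median width was 688 bases, and the median ratio of its width to that of the site was 2.21. For peaks of all 3 lists and for activated peaks without an intact overlap, it was wider in 98.0% and 94.9% of cases. The site lay wholly inside it in 7427 cases (73.6%), against 87.8% and 74.2% in those classes, and its summit lay inside in 9584. The median distance between the summits was 96 bases, against 74 for intact peaks in all 3 lists. Summits lay within 50 bases of each other at 3346 sites (33.2%, 32.2 to 34.1) and over 500 bases apart at 557 (5.52%). At 5169 sites (51.2%) the summits were within 100 bases.

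The 10093 sites touched 9929 blastema peaks, 5.90% of the 168368 in that list. Of these, 9705 held 1 site, 221 held 2 and 3 held 3. By strength within the blastema list they sat high: 35.5% were in its strongest decile by −log10 q and 91.2% in the upper 5 deciles. They made up 20.9% (20.3 to 21.5) of the strongest decile and 0.523% (0.420 to 0.644) of the weakest. For the blastema peaks over intact peaks of all 3 lists these shares were 57.8% and 0.0654%. The set was thus spread further down the blastema list than the peaks of all 3 lists.

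The first of the 3 blastema peaks with 3 sites was on 12q segment 0 from 214027213 to 214029310. It spanned 2098 bases with a fold of 6.38, and its 3 intact peaks held 13, 12 and 13 fragments, at 214027244 to 214027558, at 214028054 to 214028282 and at 214028457 to 214028725. No activated peak overlapped it, and the nearest was 99196 bases from the first of the 3. A single long blastema call thus lay over separate short peaks of the shallower intact list. The part of depth in this was not tested.

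Relative to depth and to their intact height, the sites had nearly the same median height in blastema as the intact peaks of all 3 lists. Pileups were divided by the lowest background of their own list, and the blastema value by the intact value. The blastema value was that at the summit of the whole blastema peak, which can lie outside the site. The median ratio was 0.589 for the sites (5th to 95th percentile 0.350 to 0.927) and 0.593 for intact peaks in all 3 lists (0.388 to 0.882). The ratio exceeded 1 at 266 sites (2.64%, 2.33 to 2.97). Summits were chosen for height in both lists, which can move the ratio either way, and its part in a ratio below 1 was not tested. Only the nearness of the 2 medians is described here, and it was not tested either. Across the sites the pileups of both lists had a Spearman rho of 0.72 (n = 10093 sites), against 0.77 for the 12493 peaks of all 3 lists, a description over points that share libraries and depth.

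**Figure D3:**
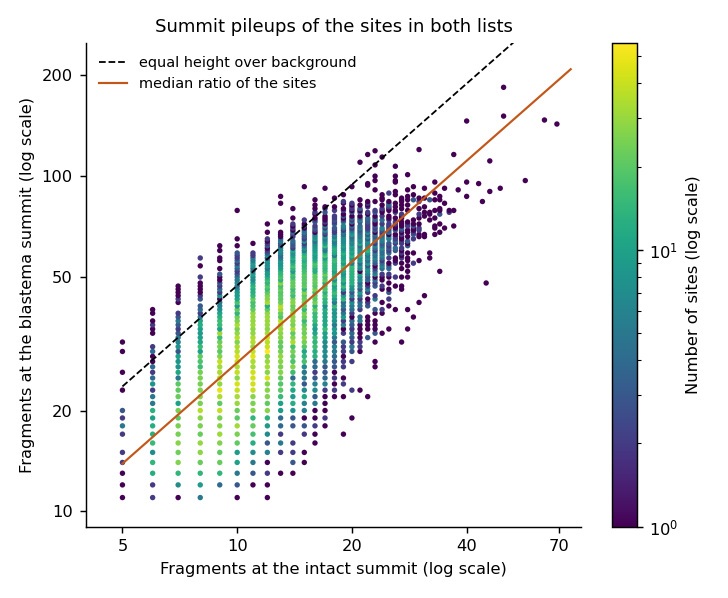
Fragments at the intact summit (horizontal axis, log scale) against fragments at the summit of the overlapping blastema peak (vertical axis, log scale) for the 10093 sites, coloured by the number of sites at each pair of values. The dashed line marks equal height over the lowest background of each list and the solid line the median ratio of 0.589; 2.64% of the sites lie above the dashed line.

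Most sites stood far from any called peak of the activated limb, and a small part had one nearby. The median distance to the nearest activated peak was 242404 bases. An activated peak lay within 1 kb of 940 sites (9.31%, 8.75 to 9.90) and within 10 kb of 1343 (13.3%, 12.6 to 14.0), while 1810 (17.9%) had none within 1 Mb. The share within 10 kb turned on the overlap rule and the lists. It was 38.1% when a shared part of 50% of each interval was asked, 27.2% by summit and 18.9% when every list was cut to equal length. The 50% and summit rules also admit intact peaks that overlap an activated peak, and these count as within 10 kb. Only 67.2% and 84.2% of the sites under these rules were members of the set. A fold minimum of 5 gave 8.98%, a −log10 q minimum of 5 gave 6.60%, and widening the activated intervals by 500 bases on each side gave 6.005%. For the 2405 peaks of the intact list alone the median was 587280 bases, with 3.37% (2.68 to 4.17) within 10 kb. Few sites fell between 1 and 10 kb, 403 or 3.99%, less than within 1 kb. The same order was seen in peaks of the intact list alone, with 1.41% against 1.95%. It was also seen in activated peaks that blastema shared and intact limb lacked, with 4.96% against 16.4%.

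The near sites were largely those whose blastema peak also reached an activated peak. There were 766 such sites (7.59%, 7.08 to 8.12), with a median gap of 167 bases to the activated peak and a blastema peak of median width 1228 bases. This share too depended on the rule, with 22.0% by summit, 12.6% at equal list lengths, 5.09% with a fold minimum of 5, 3.29% with a −log10 q minimum of 5, 1.38% with a shared part of 50% and 0.806% with widened intervals. The summit and 50% rules admit intact peaks that overlap an activated peak, and these enter their shares. So do the fold and −log10 q minimums, where that activated peak falls below the minimum and is not counted. The sites beyond the 766, 9327 in number (92.4%), had a blastema peak that no activated peak touched. Its width had a median of 658 bases, and the gap one of 287490 bases. Among the 766, the activated peak inside the shared blastema peak was itself in the intact list at 498 sites (65.0%, 61.5 to 68.4). At 517 (67.5%, 64.0 to 70.8) an activated summit was nearer the blastema summit than the summit of the site was. Summits of site and blastema peak were a median of 391 bases apart in these 766, against 89 bases in the others. In intact limb the median pileup was 17 fragments in the 766 and 13 in the others, while the median fold over local background was 4.50 and 5.08.

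**Figure D4:**
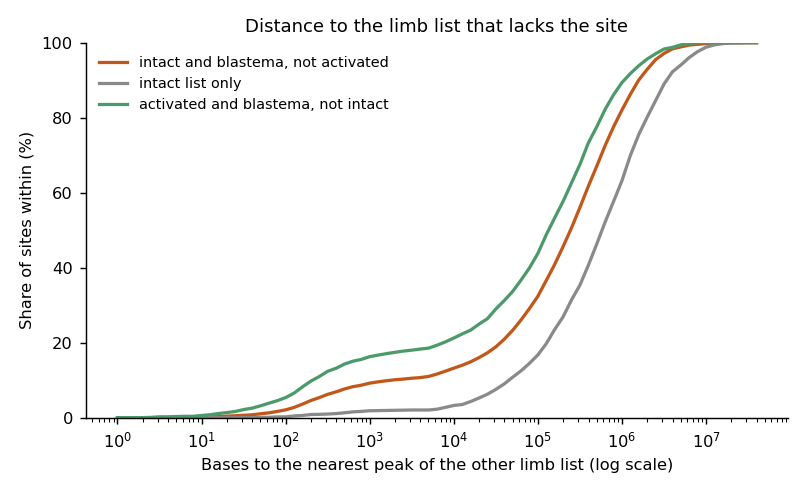
Cumulative share of sites (vertical axis, percent) within a given distance of the nearest peak of the limb list that lacks them (horizontal axis, bases, log scale), for the sites, for peaks of the intact list alone, and for sites of activated limb and blastema that intact limb lacks. The curve of the sites passes 9.31% at 1 kb and 13.3% at 10 kb and reaches its median at 242404 bases.

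The edge of the rule ran through closely similar peaks. Just inside it, sites on 1p segment 1 from 189383161 to 189383360 (18 fragments) and on 6q segment 1 from 379527685 to 379528122 (20 fragments) lay 1 base from an activated peak. A site on 3p segment 0 from 107837896 to 107838389 (13 fragments) lay 2 bases away. Just outside it, intact peaks at 228119041 to 228119971 of 12q segment 0 (17 fragments), at 275699773 to 275699972 of 14q (11 fragments) and at 278395429 to 278395628 of 1p segment 2 (15 fragments) shared 1 base with an activated peak. In all, 219 sites had a gap under 100 bases, and 502 peaks of all 3 lists shared under 100 bases with an activated peak.

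The condition on blastema had an edge too. Sites at 332760147 to 332760346 of 10p segment 0, at 185996166 to 185996487 of 11q segment 0 and at 313883917 to 313884116 of 3q segment 3 shared only 2 bases with their blastema peak, and their summits lay 268, 355 and 718 bases from the blastema summit. Under 100 bases were shared at 323 sites. At the other extreme, the median overlap was 259 bases, and 7427 sites were covered over their whole length.

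The sites farthest from a called activated peak lay in stretches where that list was empty over many megabases, which does not show closed chromatin there. On 5p segment 0, a site from 326050378 to 326050619 was 28645984 bases from any activated peak and another from 333249859 to 333250058 was 25624342 bases away, with 9 and 6 fragments in intact limb and 19 and 24 in blastema. On 6q segment 2, a site from 371009679 to 371010120 with 12 fragments in each list was 24953017 bases away. A pair from 374120181 to 374120571 and from 374120904 to 374121132, with 17 and 15 fragments, sat under a single blastema peak of 1491 bases, 21842566 and 21842005 bases away. The highest −log10 q of the 5 in intact limb was 6.77.

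Depth was set beside the missing activated peaks by scaling each intact summit to the activated list. After multiplying by 0.710, the pileup reached 5 fragments, the lowest in the activated list, at 9572 sites (94.8%, 94.4 to 95.3), where 95% of all intact peaks on named arms did. Scaling pileup and background together, a form chosen after seeing the data, 8274 sites (82.0%, 81.2 to 82.7) reached the lowest −log10 p in the activated list, 4.66. That was 86.7% for all intact peaks, 96.9% for those in all 3 lists and 54.0% for those in the intact list alone. The median scaled −log10 p was 5.82 for the sites and 6.74 for all intact peaks. It was 8.56 for those in all 3 lists and 4.75 for those in the intact list alone. These medians all lay below the median of the activated list, 9.70, which 382 sites (3.78%) reached. The 25th percentile of that list, 7.91, was reached by 1393 sites (13.8%). At the depth ratio of 0.710, most sites thus scaled to between the weakest activated call and the lower quartile of that list. Counts at the median and the quartile were made for the sites alone, so this range is not shown to be particular to them. With the 5th percentile of the background as the measure of depth the ratio was 0.929. There 9986 sites reached the lowest −log10 p, and neither the number reaching the quartile nor the share of all intact peaks was counted. The scaling leaves out counting error. For the scaled −log10 p the scaled pileup was rounded down to whole fragments, which lowers that value. The count by pileup was not rounded, and there the 353 sites with 7 fragments fell just short of 5. Picking intact summits for their height can raise the scaled values, which was not tested. The part of depth in the missing calls was not tested.

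For the 10 sites of highest fold the scaled −log10 p lay between 10.96 and 15.5, above the median activated peak in each case. These sites were picked by a fold that rests on the same pileup and background, so high scaled values follow from the choice. At 324 sites (3.21%) the scaled value was at least 10, a count not made for all intact peaks.

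The mirror set, peaks of activated limb that a blastema peak overlapped and no intact peak did, held 3127 of 16842 activated peaks on named arms, or 18.6% (18.0 to 19.2). Its members had medians in their own list of 11 fragments, 240 bases in width and a −log10 q of 3.92. They lay closer to the limb list that lacked them, with a median of 134498 bases and 21.3% (19.9 to 22.8) within 10 kb. Their blastema peak also touched that other limb list in 13.5% of cases (12.3 to 14.7), against 7.59% here. The intact list is the longer limb list, and its length moves with these distances. Its part in the difference was not tested. A blastema peak overlapped 77.3% (76.0 to 78.6) of activated peaks with no intact overlap and 80.8% (80.1 to 81.4) of intact peaks with no activated overlap. The latter share was below the 89.9% of all intact peaks on named arms.

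All 10093 sites were overlapped by a peak of the list called on all samples, whose median width there was 906 bases and median −log10 q 14.6. That list includes the reads of the same groups, so the overlap is no independent sign. Full overlap was not particular to the sites. It also held for all 12493 peaks of all 3 lists and all 119 shared with activated limb but not blastema. Of the peaks in the intact list alone, 2003 of 2405 (83.3%) were overlapped.

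Position was not used to choose the sites. They followed the other intact peaks over the arms. Of the intact peaks of an arm, between 36.3% (14q) and 45.0% (13q) were sites, with a median of 39.8% over 28 arms. The interval lay above the 40.2% of all arms in 2 arms, 13q (375 of 834, 41.6 to 48.4) and 11q (424 of 973, 43.6%, 40.4 to 46.8), and below it in 1, 10p (366 of 989, 37.0%, 34.0 to 40.1). These intervals are not adjusted for the number of arms, and peaks along an arm are not independent. On q arms lay 57.3% (56.4 to 58.3) of the sites and 56.5% of all intact peaks, close to the 55.7% of the spanned sequence that q arms make up. The share was higher on the q arm in 9 of 14 chromosomes.

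**Figure D5:**
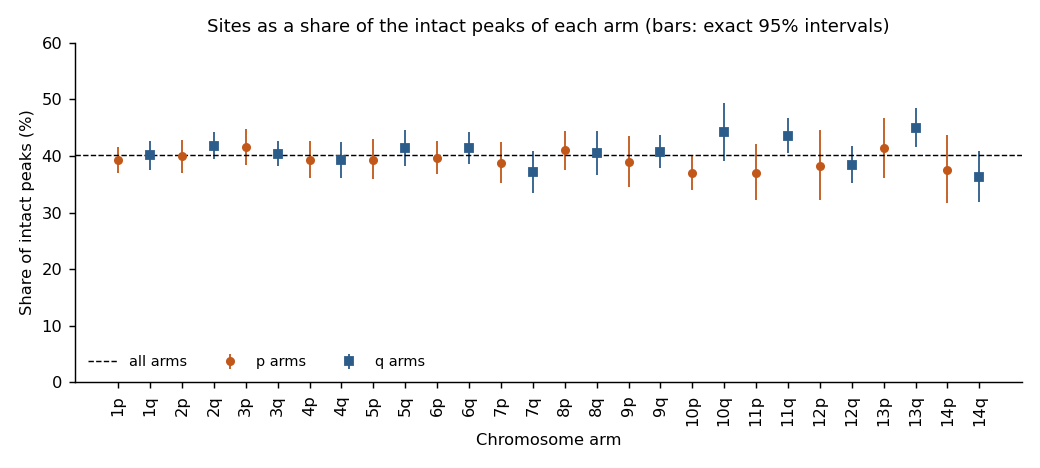
Sites as a share of the intact peaks of each of the 28 chromosome arms (vertical axis, percent, with exact 95% intervals; circles p arms, squares q arms), with a dashed line at 40.2% for all arms. Shares run from 36.3% on 14q to 45.0% on 13q, and most intervals cross the line.

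Along the arms the sites were denser toward both ends. With each arm cut into 5 equal parts, the first held 23.8% of them, the middle 15.3% and the last 26.5%, next to 23.2%, 15.4% and 26.4% of all intact peaks. The density ran from 0.233 sites per Mb on 7q to 0.776 on 13q, with a median of 0.379. All intact peaks were denser on 13q too, with 834 over 483 Mb against 681 over 1084 Mb on 7q. Character varied little between arms: median widths ran from 247 to 296 bases and median −log10 q from 3.95 to 4.48. The part whose blastema peak also touched an activated peak ran from 4.21% on 12p to 10.4% on 12q.

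Windows of 20 Mb, placed along whole arms and not within segments, held few peaks each, and their shares spread accordingly. Among 516 windows with at least 20 intact peaks the share of sites ran from 10% to 70.8% with a median of 40%. The unadjusted 95% interval held 40.2% in 493 windows, lay above it in 13 and below it in 10. Local differences were not tested, and the windows outside are given as values only. Arm 13q held 4 of the 13, at 60 to 80, 300 to 320, 420 to 440 and 460 to 480 Mb, with 20 of 33, 27 of 44, 25 of 44 and 43 of 79 intact peaks. The last of these contains both 13q sites among the 10 of highest fold.

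On 6q the window from 1560 to 1580 Mb had 27 sites among 42 intact peaks (64.3%, 48.0 to 78.4). On 9q, the window from 960 to 980 Mb had 61 sites among 131 intact peaks (46.6%), and the next, from 980 to 1000 Mb, had 14 among 69 (20.3%, 11.6 to 31.7). In counts, the window from 1400 to 1420 Mb on 1q led with 68 sites among 159 intact peaks, or 42.8%, a share near that of all arms.

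Most sites had no other site within 100 kb, at a density of 0.378 sites per Mb over all arms. Another site lay within 1 kb of 566 (5.61%) and within 100 kb of 2308 (22.9%), and the median distance was 455638 bases. An intact peak of all 3 lists lay within 1 kb of 621 sites (6.15%) and within 100 kb of 2549 (25.3%), with a median of 355115 bases. Whether the sites lay closer together than an even scatter at their density was not tested. The densest windows of 1 Mb were at 71530354 to 72530353 of 1q segment 1, with 14 sites among 21 intact peaks, and at 308711916 to 309711915 of 3q segment 3, with 12 among 20. Both also held activated peaks, 9 and 8. Windows at 427224248 to 428224247 of 1q segment 2 and at 63539532 to 64539531 of 8p segment 0 had 11 each, with 15 and 6 activated peaks, and one on 14p from 55535028 to 56535027 had 10, with 16 activated peaks. All 5 windows thus held activated peaks as well.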

How the data were processed

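Cells of 7 samples were grouped by their labels. Bowtie2 2.3.2 and MACS2 did the alignment and the peak calling, according to the submitters' processing notes. Not given in the sources used are the MACS2 version, genome build, treatment of duplicates, Tn5 shift and control. The authors deposited 1 peak list per group and 1 for all samples, and how samples were combined is not stated. Whether samples of a group are separate animals is not stated.

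Per peak the authors deposited a score (10 times the −log10 q, not used), a fold at the summit, which is a ratio of pileup plus 1 to background plus 1, and the −log10 p and −log10 q. All serve to describe peaks within a list. Whole pileups and backgrounds were solved from the deposited fold and −log10 p within 0.001, leaving 3 activated peaks unsolved. The overlap, distance and pileup functions were tested on simulated data. Distances ran along whole arms, and positions are 1-based. An arm was taken to end at its last all-sample peak. A site's blastema peak is the one sharing most bases. Python 3.11.15, pandas 2.3.3 and scipy 1.17.1 were used.

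The members, the rule for named sites and the settings were chosen with earlier results of these data known. Named were the 10 sites of highest fold, the 5 of highest −log10 q and of highest blastema fold, the 3 widest, the 5 farthest from activated peaks, the sites at the edges of the rule, the blastema peak with most sites and the 5 densest windows of 1 Mb, together 33 distinct sites beside the windows. Planned gene and motif results were not analysed here, since the gene table at hand is of an assembly not known to be that of the files.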

Additional observations from a re-analysis of the deposited data

How the results depend on the processing

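The number of sites, 10093, was 11391 with the intact summit inside the other interval, 10390 with unplaced sequences, 10082 with near peaks merged and 9309 with activated intervals widened by 500 bases. With a shared part of 50% of each interval there were 5354, at a −log10 q of at least 5 there were 5803, at a fold of at least 5 there were 2339, and 2602 were left with lists at the length of the shortest. Of the 10093 sites, 3600, 3343, 2106 and 2602 remained in these 4 settings. The share whose blastema peak also touched an activated peak was, in the order of the 4 settings, 1.38%, 3.29%, 5.09% and 12.6%. It was 22.0% by summit and 0.806% with widened intervals, where the widening itself removes near sites. The share within 10 kb of an activated peak was 38.1%, 6.60%, 8.98% and 18.9%, and 27.2% by summit and 6.005% widened. The median summit distance was 70, 69, 59 and 68 bases, and 90 widened. The q arm share was 55.7% with 50% shared and 54.9% with a fold minimum of 5. Under the 50% and summit rules, admitted peaks that overlap an activated peak count as within 10 kb of it. The fold and −log10 q minimums also admit peaks whose activated overlap falls below the minimum, and there that overlap is not counted. The cause of these shifts was not tested beyond what each setting removes or admits. The number of sites whose scaled pileup reached the lowest in the activated list was 9572 of the 10093. By summit it was 10918 of 11391, and with widened intervals 8789 of 9309. Over the 10093 it was 9032 against the 1st percentile of the activated pileups, and 8274 by scaled −log10 p. It was 10070, and by scaled −log10 p 9986, with the 5th percentile of the background as the measure of depth. The forms by scaled −log10 p were chosen after seeing the data. The shallow activated list limits what its missing calls can show. No paired analysis was possible because each group has 1 list and no sample has values of its own; for the same reason no replicate could be left out.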

Other observations

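Blastema height relative to intact height varied most at sites that the rule for named sites did not pick, and these were chosen after their values were seen. The blastema values are those at the summit of the whole blastema peak, which can lie outside the site. The highest ratio of pileup over the lowest background, 1.67, was on 3q segment 1 from 353825394 to 353825593, 186 bases from an activated peak. It had 10 fragments in intact limb and 79 in blastema, where the peak ran from 353825157 to 353826393. Next were sites at 160080399 to 160080713 of 10q segment 1 and at 349279263 to 349279545 of 11q segment 2, each with 8 fragments in intact limb, 57 in blastema and a ratio of 1.51. No activated peak lay within 100 kb of either. The lowest ratios were on 10p segment 1 from 5499214 to 5499585, with 19 fragments in intact limb, 17 in blastema and a ratio of 0.190, and on 10q segment 0 from 104107665 to 104107983, with 12 and 11 fragments and a ratio of 0.194. The 10p site lay 8502215 bases from any activated peak. With 1 list per group none of these ratios could be tested.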
